A study of Arabidopsis thaliana with 12 samples.

Results

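Exon regions are the accessible regions whose annotation, in the authors' table for 14 h, begins with the word exon, so that the centre of the region lies in an exon of an annotated transcript. They numbered 51868 of 136930 regions, or 37.9%. The annotation also gives the exon's number within the transcript. By that number 9002 regions lay in a first exon (17.4%), 28946 in an inner exon (55.8%), 8288 in a last exon (16.0%), and 5632 in the exon of a gene that has only 1 (10.9%). Regions were joined by their coordinates to the count files of all 12 libraries, and 42447 exon regions were counted in every one.

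ATAC-seq reads open chromatin: the transposase Tn5 inserts adapters where DNA is free of nucleosomes, and the number of reads in a region measures how often it was cut. In plants, open chromatin is best known from the stretch just before a transcription start and the stretch just after a gene's end, where regulatory proteins bind. Exons are known to be richer in nucleosomes than introns, and reads within exons come from short gaps between nucleosomes, from binding sites that lie in coding sequence, and from the edges of an open promoter or gene end. Root regeneration starts when the tip of a root, with its stem cells, is cut away and cells of the stump rebuild it. MP (MONOPTEROS) is an auxin response factor, a transcription factor that carries out auxin signals and is active in the vascular tissue of the root.

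The study compared chromatin in regrowing Arabidopsis thaliana roots with that in intact roots. All seedlings were 7 DAS old. In the regenerating groups, of genotype MP::MP-GFP, about 130 µm of the tip was removed, and the next 200 µm above the wound was taken 2.5 h, 14 h or 16 h later, digested to protoplasts and sorted for GFP. This marker selects cells in which the MP promoter drives an MP-GFP fusion, so the transgene adds copies of MP sequence. The uncut group was Col-0 without the transgene. For it, too, 130 µm removed and 200 µm collected are recorded, and the piece was stained with 1 µM DAPI before the sort. Each group held 3 libraries, with 50000 nuclei per uncut library and 1000 per regenerating library, except 2000 in 16 h replicate 3. Excision, plant line, sort and number of nuclei differ together between the uncut and the regenerating groups and cannot be told apart. The labels do not say whether replicates are separate batches of plants, so p-values measure the spread between these libraries only. Fewer nuclei with an open region and less opening per nucleus also cannot be told apart.

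Regions counted in every library held 19830391 to 28059811 reads per uncut library, 1442390 to 3901836 at 2.5 h, 7668258 to 12426508 at 14 h and 1239119 to 1949221 at 16 h. The median exon region held 151 to 203 reads in an uncut library, 10 to 30 at 2.5 h, 68 to 112 at 14 h and 11 to 16 at 16 h. The share of exon regions without a read was 0.0% in each uncut library, 23.6% to 34.2% at 2.5 h, 0.707% to 3.38% at 14 h and 1.79% to 3.51% at 16 h. Across exon regions, Spearman correlations between replicates were 0.949 to 0.959 in uncut roots, 0.254 to 0.287 at 2.5 h, 0.507 to 0.607 at 14 h and 0.443 to 0.476 at 16 h. Depth and agreement between replicates therefore differed with the groups, and their part in the differences from uncut roots was not tested.

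Exon regions were spread over 18339 genes, nearly all of them protein-coding (99.0% of the regions). There were 5932 genes with 1 exon region, 9435 with 2 to 4 and 2972 with 5 or more. The genes with most regions counted in every library were long ones: AT5G23110, a RING-finger family gene, had 25, AT1G48090, a calcium-dependent lipid-binding family gene, had 24, and AT1G67120, a midasin-like gene, had 22. The regions were short, with a median of 131 bp. Inner-exon regions were the narrowest (118 bp), followed by last-exon (156 bp), first-exon (159 bp) and single-exon regions (182 bp). The median distance to the nearest annotated transcription start was 1192 bp for all exon regions, 371 bp for first exons and 1453 bp for inner exons. For 19.6% of exon regions the nearest start belonged to another gene, and genes are therefore named here by the transcript that holds the exon.

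Exon regions were found again across region sets more often than most other kinds of region. Of the exon regions 81.8% had the same coordinates in every group's set, against 62.7% of promoter regions, 71.1% of regions at transcription ends (TTS), 75.9% of intergenic and 36.6% of intron regions. Relative to their width, all kinds of region had similar levels in uncut roots, exon regions among them. In uncut roots the median exon region stood at 58.3 ± 0.33 CPM per kb (reads scaled to library size with TMM factors, called CPM, and divided by width in kb; mean ± SD, n = 3), the median promoter region at 61.2 ± 1.08 and the median intron region at 53.5 ± 1.70. The median TTS region stood at 60.1 ± 0.44 and the median intergenic region at 56.5 ± 3.53. The exon classes lay close together, from 57.1 ± 0.49 CPM per kb in last exons to 58.9 ± 0.90 in first exons. At 2.5 h the exon median was 38.2 ± 7.11 CPM per kb, at 14 h 60.7 ± 1.83 and at 16 h 58.4 ± 0.91. The lower median at 2.5 h went with the larger share of regions without a read. The 10 exon regions with the highest CPM per kb were each 1 bp wide, led by AT1G21670 at 3.34 ± 0.70 CPM in uncut roots, so that this ranking follows width and is not used further.

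Exon regions took a larger part of the reads in every regenerating library than in any uncut library. They held 44.2%, 44.6% and 44.8% of the reads in shared regions in the uncut libraries. At 2.5 h the shares were 47.4%, 47.1% and 46.8%. The 14 h libraries had 46.3%, 47.7% and 47.1%, and those of 16 h 47.2%, 47.3% and 46.8%. The 9 regenerating libraries averaged 47.1% ± 0.39 (SD) and the 3 uncut libraries 44.5% ± 0.31, a difference of 2.51 percentage points (exact permutation test over libraries, two-sided, p = 0.00455, the smallest that 9 against 3 libraries allow). Each time alone, at 3 against 3, gave the smallest p of that design, 0.1 (exact permutation, two-sided). On chromosomes 3 and 5 alone the difference was 1.40 points. The late libraries and those of 2.5 h did not separate: 14 h and 16 h together differed from 2.5 h by -0.06 points (exact permutation p = 0.833, 6 against 3 libraries). The separation from uncut libraries was not particular to exon regions. TTS regions held 18.6% to 18.9% of the reads in uncut libraries. Their shares were 19.4% to 19.7% at 2.5 h, 19.4% to 19.5% at 14 h and 19.1% to 19.5% at 16 h.

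The gain of exon regions was largest against intergenic regions, of the 3 kinds of region set against them. The log2 ratio of exon to intergenic reads was 1.66 ± 0.10 in uncut and 2.25 ± 0.15 in regenerating libraries, a difference of 0.58 (exact permutation, two-sided, adjusted p = 0.0136 over the 3 ratios). Exon against promoter reads differed by 0.03 (adjusted p = 0.455, exact permutation) and exon against intron reads by -0.07 (adjusted p = 0.455, exact permutation), neither past the threshold. The intergenic share of reads was 14.1% ± 0.85 in uncut roots and 10.6% ± 1.11, 9.08% ± 0.12 and 10.2% ± 1.09 at 2.5 h, 14 h and 16 h.

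Among the exon classes, inner exons gained on last exons. The log2 ratio of inner-exon to last-exon reads was 1.27 ± 0.02 in uncut libraries and 1.37 ± 0.05 in regenerating ones, higher by 0.11 (exact permutation, two-sided, adjusted p = 0.0409 over the 3 ratios of classes, n = 3 and 9). The ranges overlapped in 1 library, 16 h replicate 2, at 1.27 against 1.24 to 1.28 in uncut roots. That library stood apart in first, inner and single exons but not in last exons: 21.8% of its exon reads lay in first exons, 43.4% in inner and 16.9% in single exons, whereas 16h replicates 1 and 3 had 19.0% and 19.2%, 48.5% and 48.9%, and 14.3% and 14.1%. Without it the difference was 0.12 (adjusted p = 0.0182, exact permutation), and without any other single regenerating library the adjusted p lay between 0.0545 and 0.109. Without 1 uncut library no adjusted p under 0.0545 is possible over 3 ratios, and the values were 0.109 to 0.218. First exons against last exons (0.04, adjusted p = 0.368) and against inner exons (-0.06, adjusted p = 0.368, exact permutation) did not pass.

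**Figure D1:**
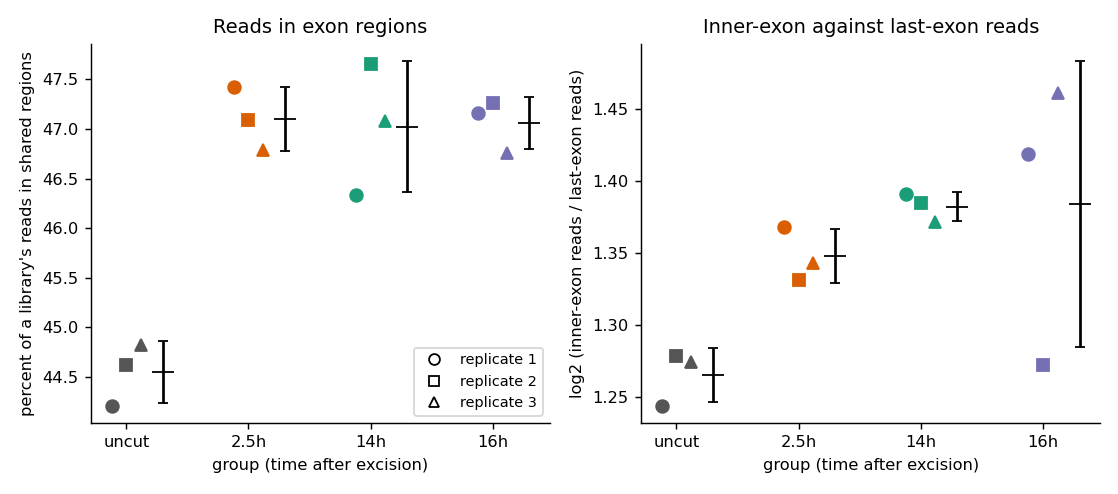
Left, percent of each library's reads in shared regions that lie in exon regions; right, log2 ratio of inner-exon to last-exon reads. Points are libraries by group and the bar beside them is the mean with its SD (n = 3); all 9 regenerating libraries lie above the uncut libraries on the left, and 16 h replicate 2 falls among the uncut libraries on the right.

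Single exon regions were tested with edgeR's quasi-likelihood test over all regions shared by 2 groups, with a call at a Benjamini-Hochberg adjusted p under 0.05. The 3 comparisons with uncut roots share the uncut libraries. At 2.5 h, 11 exon regions of 42418 were higher (0.0259%, against 0.0463% of all regions tested) and 2068 were lower (4.88%, against 7.71% of all regions). Of the lower ones, 1836 had no read in any 2.5 h library. At 14 h, 328 of 43670 were higher (0.751%, against 0.766% of all regions) and 916 lower (2.098%, against 5.24%). At 16 h, 996 of 43658 were higher (2.28%, against 3.07%) and 1378 lower (3.16%, against 6.59%). Shares called lower were thus under those of all regions at each time, and shares called higher at 2.5 h and 14 h were near or under them. All regions tested at 2.5 h and 16 h include regions absent from the 14 h table, which have no annotation there. Among annotated kinds at 16 h, 2.45% of promoter, 1.99% of TTS, 2.81% of intron and 1.29% of intergenic regions were higher. Exon regions lay among these. Median log2 fold changes of exon regions were -0.29, 0.10 and 0.06 at the 3 times, beside -0.38, 0.04 and 0.01 over all regions.

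These counts rested on every uncut library. Leaving out uncut replicate 1, 2 or 3 gave 0, 0 and 0 higher exon regions and 1069, 992 and 965 lower at 2.5 h, 15, 14 and 20 higher and 300, 335 and 372 lower at 14 h, and 31, 35 and 38 higher and 337, 354 and 376 lower at 16 h. Without 1 library of the regenerating group counts rose, to between 513 and 667 higher and 4592 and 5938 lower at 2.5 h without 2.5h replicate 1, 2 or 3, to between 1146 and 2179 higher and 1488 and 2220 lower at 14 h without 14h replicate 1, 2 or 3, and to between 1709 and 2061 higher and 1953 and 2096 lower at 16 h without 16h replicate 1, 2 or 3. At 14 h, scaling by total counts in place of TMM gave 488 higher and 746 lower.

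Exon classes had unequal shares of calls, whose difference was not tested. At 14 h, 1.41% of inner-exon regions were lower, against 2.50% of first-exon, 2.98% of last-exon and 3.84% of single-exon regions. At 16 h, 3.04% of first-exon and 2.99% of single-exon regions were higher, against 1.94% of inner-exon and 2.23% of last-exon regions. Inner-exon regions are also the narrowest, and the part of width in these shares was not tested. Calls in both directions were more frequent near the transcription start at 14 h and 16 h. At 16 h 3.38% of exon regions within 500 bp were higher and 4.08% lower, against 1.83% and 2.52% of those beyond 2000 bp. At 14 h the shares were 0.895% and 2.90% within 500 bp and 0.559% and 1.41% beyond 2000 bp.

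**Figure D2:**
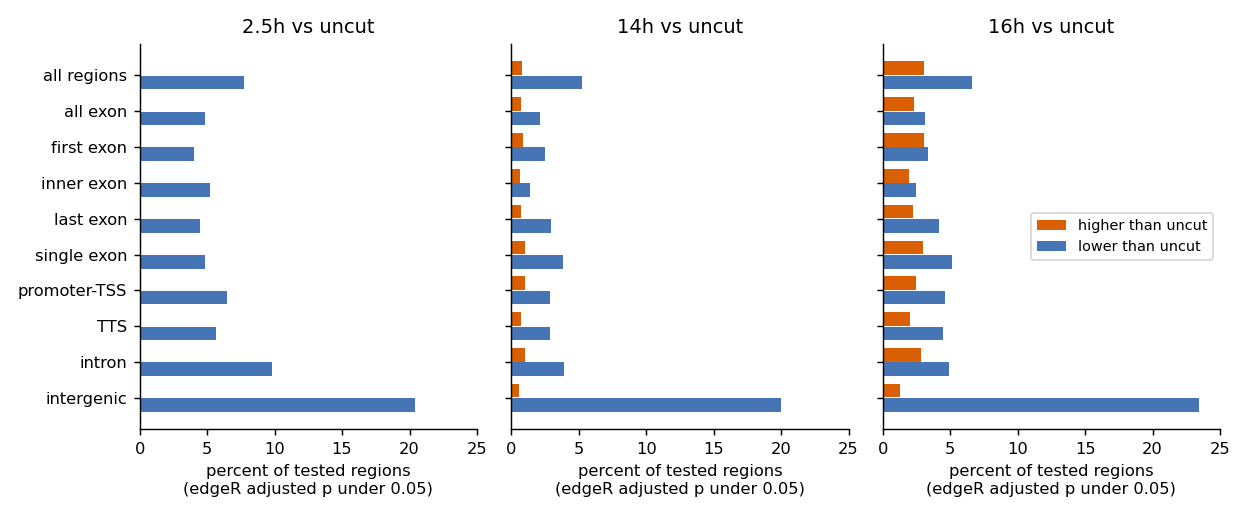
Percent of tested regions called higher (orange) or lower (blue) than uncut by edgeR at an adjusted p under 0.05, for each kind of region and exon class at 2.5 h, 14 h and 16 h. Exon regions lie under the share of all regions among lower calls (4.88% against 7.71% at 2.5 h), and intergenic regions lie farthest above it.

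Some genes with a called exon region also had a called promoter region. At 14 h, 310 genes had an exon region higher, 119 of these had a promoter region in the test, and in 5 a promoter region was also higher, beside 0.988% of all promoter regions. At 16 h this held for 16 of 401 genes, beside 2.45% of promoter regions. For lower exon regions it held for 57 of 310 genes at 14 h, beside 2.90% of promoter regions, and for 104 of 477 at 16 h, beside 4.62%. Genes may have several promoter regions, and these shares were not tested against each other. Across genes, which are not independent replicates, the median log2 fold change of a gene's exon regions and that of its promoter regions had a Spearman correlation of 0.082 at 2.5 h (7565 genes), 0.204 at 14 h (7813) and 0.153 at 16 h (7810). The 2 values share libraries and depth.

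MP itself had more reads over its exons in every regenerating library. Its 7 exon regions counted in every library, in exons 5, 6, 8, 10 and 11, summed to 52.9, 58.1 and 52.1 CPM in the uncut libraries. At 2.5 h they summed to 158, 207 and 131 CPM, at 14 h to 166, 184 and 174 CPM, and at 16 h to 198, 129 and 150 CPM. No regenerating library overlapped the uncut ones. At 14 h all 7 regions were higher (log2 fold changes 1.42 to 2.29), at 16 h 6 were, and at 2.5 h 1 was. Without some uncut library 3 of the 7 calls at 14 h and 5 of the 6 at 16 h were lost. That region, in exon 8 (chromosome 1, 6888766 to 6888899, TAIR10), stood at 9.41, 10.1 and 6.78 CPM in uncut libraries and at 45.3, 82.3 and 29.7 CPM at 2.5 h, a log2 fold change of 2.59 ± 0.45 (SE; edgeR, Benjamini-Hochberg adjusted p = 0.0230). It missed the threshold without any 1 uncut library. No promoter or intron region of MP was counted in every library. Past the gene's end, 3 TTS regions of MP summed to 45.4 ± 4.28 CPM in uncut roots and 66.9 ± 6.78 CPM at 14 h, where none of the 3 was called. At 16 h they summed to 62.3 ± 4.19 CPM and 1 of them was higher (log2 fold change 1.59, edgeR adjusted p = 0.00404). Reads of the MP-GFP transgene cannot be told apart from those of the native gene, and where the transgene's MP sequence ends is not given in the sources used here.

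**Figure D3:**
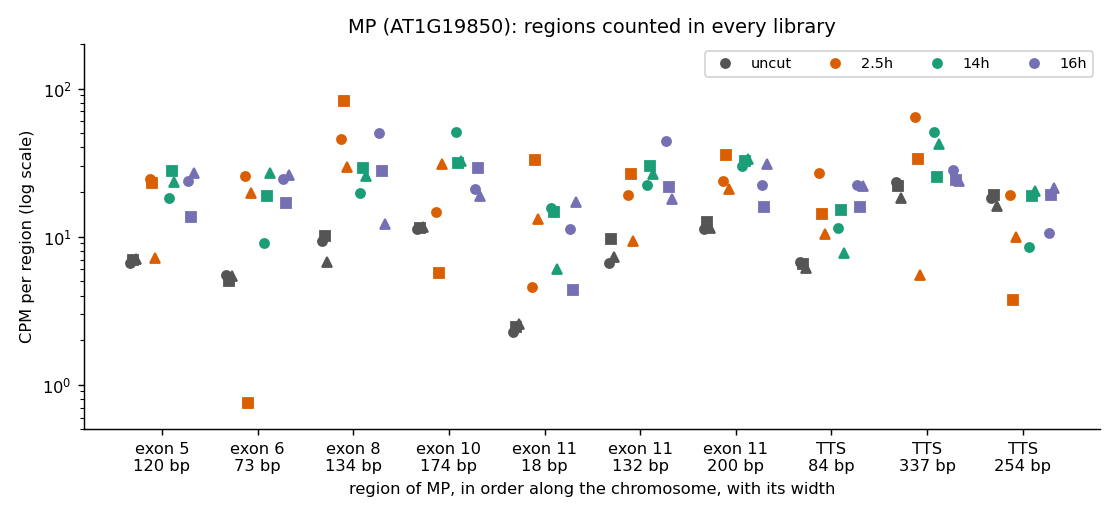
CPM on a log scale in each library for the 7 exon and 3 TTS regions of MP counted in every library; colours are groups and marker shapes replicates (circle 1, square 2, triangle 3). In each of the 7 exon regions the 14 h libraries lie above the uncut libraries, whereas the 2.5 h libraries scatter widely.

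At 2.5 h the largest rises apart from MP lay in genes with varied roles. In exon 54 of ATM (AT3G48190, a kinase of the DNA damage checkpoint; chromosome 3, 17821724 to 17821782) levels were 2.85, 4.64 and 3.44 CPM in uncut libraries and 16.2, 15.8 and 24.2 CPM at 2.5 h (log2 fold change 2.36 ± 0.47, edgeR adjusted p = 0.0316). At 14 h and 16 h the same region stood at 7.97 ± 2.82 and 5.76 ± 3.02 CPM. Exon 3 of HUA2 (AT5G23150, a PWWP-domain protein; log2 fold change 2.24), exon 2 of AT4G01810 (a Sec23/Sec24 transport family gene; 2.14), exon 1 of AT3G24240 (a leucine-rich repeat receptor-like kinase; 1.99) and exon 14 of AT2G36200 (1.93) were also higher. Each of these regions missed the threshold without any 1 of the uncut libraries.

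At 14 h the largest rises above the median level were in AT1G27570 and DEAR2. The last exon of AT1G27570, a phosphatidylinositol 3- and 4-kinase family gene (exon 8, chromosome 1, 9582225 to 9582302), stood at 3.68, 3.42 and 4.41 CPM in uncut libraries and at 25.2, 11.6 and 13.3 CPM at 14 h (log2 fold change 2.09 ± 0.36, edgeR adjusted p = 0.0140). The single exon of DEAR2 (AT5G67190, an AP2/ERF repressor; chromosome 5, 26809158 to 26809283) stood at 3.88 ± 0.21 CPM in uncut roots and at 15.2 ± 6.50 CPM at 14 h (1.95 ± 0.37, adjusted p = 0.0228). The single exon of AT2G45040, a matrixin family gene, was at 5.83 ± 0.33 and 21.4 ± 3.56 CPM (1.85 ± 0.23, adjusted p = 0.00345). These regions were named only because their 14 h and uncut libraries did not overlap, so that separation follows from the choice. The calls of AT1G27570 and DEAR2 were lost without uncut replicate 1, 2 or 3, and that of DEAR2 also among regions of chromosomes 3 and 5 alone. A pair of nearby genes on chromosome 2 with no described function was higher too. Exon 12 of AT2G07981 (3616849 to 3617064) stood at 46.8 ± 4.20 CPM in uncut roots, 173 ± 13.3 at 14 h and 185 ± 21.7 at 16 h, and exon 36 of AT2G08986 (3624571 to 3624693) at 18.3 ± 1.64, 66.7 ± 16.1 and 73.0 ± 19.7 CPM.

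At 16 h the largest rises were in single regions of TWN2 and AT2G41835. Exon 15 of TWN2 (AT1G14610, a valyl-tRNA synthetase; chromosome 1, 5010620 to 5010796) stood at 10.3, 10.5 and 9.10 CPM in uncut libraries and at 16.0, 11.3 and 8.55 CPM at 14 h. At 16 h it was at 185, 33.2 and 196 CPM, a log2 fold change of 3.75 ± 0.53 against uncut roots (edgeR adjusted p = 0.00134). The neighbouring region in exon 16 stood at 10.3 ± 0.97 CPM in uncut roots and at 8.40 ± 4.06 CPM at 16 h. Of the 6 TWN2 exon regions counted in every library, exon 18 was also called at 16 h, at a log2 fold change of 1.18. Exon 2 of AT2G41835, an AN1-like zinc finger gene, had the largest fold change (4.38 ± 1.12, adjusted p = 0.0307), which came from 16 h replicate 1. Its levels there were 635, 21.2 and 14.7 CPM against 10.6 ± 1.58 CPM in uncut roots, and without replicate 1 the log2 fold change was 0.78 (adjusted p = 0.107). It also missed the threshold without uncut replicate 1, 2 or 3 (adjusted p up to 0.270).

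**Figure D4:**
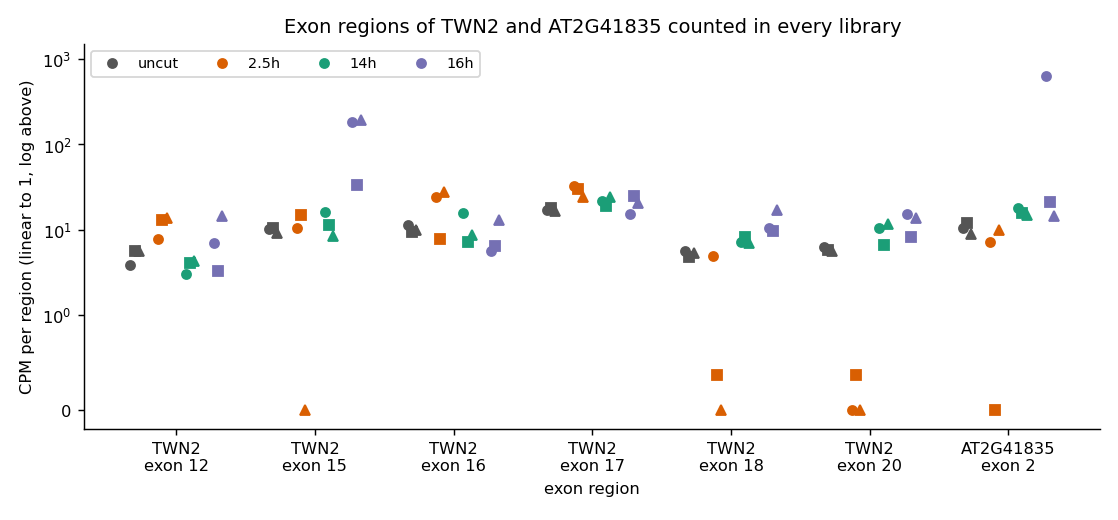
CPM in each library (linear up to 1, log scale above) for the exon regions of TWN2 and AT2G41835 counted in every library; colours are groups and marker shapes replicates (circle 1, square 2, triangle 3). In exon 15 of TWN2 the 16 h libraries lie at 33.2 to 196 CPM above all others, and in AT2G41835 16 h replicate 1 stands alone at 635 CPM.

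Among the other regions higher at 16 h, the last exon of AT1G27570 (exon 8, 9581634 to 9581688) rose from 3.36 ± 0.53 CPM in uncut roots to 23.5 ± 3.49 CPM (log2 fold change 2.79 ± 0.29, edgeR adjusted p = 0.000268). LSU2 (AT5G24660, a gene named for its response to low sulfur; chromosome 5, 8443492 to 8443744) rose from 22.9, 17.58 and 18.1 CPM to 91.2, 99.1 and 92.2 CPM (2.24 ± 0.23, adjusted p = 0.000254). Both regions were named only because their 16 h libraries lay above the uncut ones, so that separation follows from the choice.

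The named regions that fell most at a given time had no read in any library of that time. Their order by fold change therefore follows their level in uncut roots. A 1097 bp region in exon 3 of AT2G15420, described as myosin heavy chain-like (chromosome 2, 6726537 to 6727633), stood at 82.0, 67.7 and 58.6 CPM in uncut libraries and at 0 in all 2.5 h and 14 h libraries, at least 205-fold and 621-fold lower (taking 3 reads over the group as the limit of a count of 0). In 16 h replicate 3 it had reads, at 0.816 CPM. Exon 3 of ACD6 (AT4G14400, an ankyrin-repeat protein of defence signalling; chromosome 4, 8296210 to 8296775) stood at 31.4 ± 2.68 CPM in uncut roots and at 0 in all 9 regenerating libraries. It was at least 92.7-fold lower at 2.5 h, 280-fold at 14 h and 46.9-fold at 16 h. Loss was not even along that gene: exon 5 of ACD6 stood at 22.4 ± 2.61 CPM in uncut roots, 7.56 ± 1.90 at 14 h and 12.8 ± 7.52 at 16 h. The single exon of AT4G30740, a QWRF motif gene, and exon 1 of AT2G03965, with no described function, were also at 0 in all 9. Exon 1 of CYP705A13, a cytochrome P450 gene, was at 0 at 2.5 h and 14 h and had reads in 1 of the 3 libraries at 16 h. The last exon of UBQ11 (AT4G05050), one of several near-identical polyubiquitin genes, fell from 42.2 ± 0.15 CPM to 0 at 2.5 h. It had reads in every late library, at 5.13 ± 0.31 CPM at 14 h and 1.57 ± 1.08 CPM at 16 h. How the authors counted reads that match several genes was not found, and its part in this fall was not tested.

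Exon regions at 0 in every late library lay on chromosomes 1, 2 and 4 alone. There were 162 such regions of the 42447 counted in every library, 69 on chromosome 1, 44 on chromosome 2, 49 on chromosome 4, and 0 of the 8214 on chromosome 3 and of the 9996 on chromosome 5. Of the 162, 152 were also at 0 in all 2.5 h libraries. In uncut roots they stood at 0.869 to 31.4 CPM with a median of 6.65, near the 8.07 CPM of all exon regions. Exon regions shared this with other kinds of region, at a lower share: 0.382% of exon, 0.943% of promoter, 1.61% of intron and 7.01% of intergenic regions were at 0 in the 6 late libraries. By class the share was 0.440% in first, 0.285% in inner, 0.505% in last and 0.631% in single exons. Calls followed the same chromosomes. At 14 h 2.96%, 2.53% and 3.33% of exon regions on chromosomes 1, 2 and 4 were lower, against 1.12% and 0.862% on chromosomes 3 and 5, and shares called higher were 0.665% to 0.855% on all 5. Over all regions 6.59%, 9.43% and 7.86% were lower on chromosomes 1, 2 and 4, against 2.33% and 1.52% on chromosomes 3 and 5. The split was thus not particular to exon regions, whose shares were lower. Shares of all regions called higher were 0.651% to 0.893%.

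**Figure D5:**
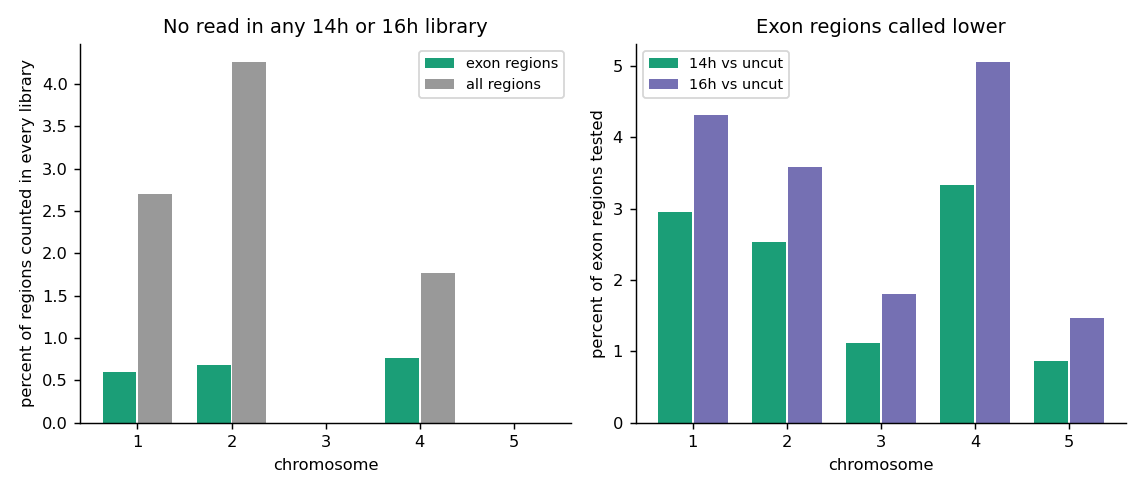
Left, percent of regions counted in every library that had no read in any of the 6 late libraries (14 h and 16 h), for exon regions and all regions; right, percent of tested exon regions called lower at 14 h and 16 h by edgeR, both by chromosome. Exon regions without late reads make up 0.603%, 0.685% and 0.770% on chromosomes 1, 2 and 4 and 0% on chromosomes 3 and 5.

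Genes of intracellular immune receptors were among those whose exons lost all reads. Exon regions of genes described as NBS-LRR or NB-ARC, the nucleotide-binding receptors that detect pathogen effectors, were at 0 in all late libraries in 26 of 482 cases (5.39%), in 11 genes. Over all exon regions the share was 0.382%. All 26 were among the 262 on chromosomes 1, 2 and 4, and 0 were among the 220 on chromosomes 3 and 5. No exon region of any gene was at 0 on chromosomes 3 and 5, so this split says nothing about these genes. This group of genes was chosen after its values were seen. A run of neighbouring genes on chromosome 4 shows the pattern. In AT4G19520, a TIR-NBS-LRR gene (10642228 to 10646999), the 10 exon regions summed to 81.4, 86.2 and 84.4 CPM in uncut libraries and to 0 in all libraries at 2.5 h and 14 h, and at 16 h 1 of 3 libraries had reads, at 1.40 CPM. Its neighbours AT4G19510 and AT4G19530, of the same class, kept some reads at 14 h, at 6.88 ± 1.302 CPM against 73.6 ± 2.21 in uncut roots, and at 9.01 ± 2.86 against 52.2 ± 0.74. At 2.5 h AT4G19510 was at 0 in all 3 libraries and AT4G19530 at 5.91 ± 5.36 CPM. The 4 regions of VPS54 (AT4G19490), which lies before this run, stood at 26.4 ± 1.94 CPM in uncut roots and at 9.09 ± 4.87 CPM at 14 h.

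The glutamate receptor-like channel gene GLR2.4 (AT4G31710) also lost its reads over its whole length, from 71.2, 74.7 and 71.6 CPM over 7 exon regions in uncut libraries to 0 in all 2.5 h and 14 h libraries. Its neighbour TAFII15 (AT4G31720) stood at 5.89 ± 0.95 CPM in uncut roots and at 5.56 ± 2.92 CPM at 14 h. Among 10622 genes with 2 or more exon regions in every library, 11 had all of them at 0 in the late libraries, 6 on chromosome 1 and 5 on chromosome 2. AT2G02620 and AT2G02690, both of the Cys/His-rich C1 domain family, and the noncoding RNA genes AT1G17255 and AT1G34844 were 4 of these.

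The set of regions tested bears on which exon regions appear higher. Of the 51868 exon regions 8197 were absent from the uncut set. With reads recovered from the authors' normalized values, which cover all regions of the 14 h set in both groups, 4519 of 8148 of these were higher at 14 h and 90 lower, while 336 of 43670 regions present in the uncut set were higher and 4661 lower (edgeR, adjusted p under 0.05; 19.0% of all regions were higher and 11.8% lower). Regions present only because a group had a peak there had to be high in that group, so these counts follow from how the sets were made. Of all regions absent from the uncut set, 72.2% were higher and 0.453% lower. Exon regions absent from it were less often higher (55.5%) and more often lower. Of all regions present in the uncut set, 0.796% were higher and 15.6% lower, against 0.769% and 10.7% of exon regions. The rises among absent regions were thus not particular to exons. In this fit the median log2 fold change of exon regions in the uncut set was -0.25, against 0.10 when those regions were fitted alone.

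Taken gene by gene in that fit, 2966 genes had 5 or more exon regions tested. Of these 1025 had calls only higher and 575 only lower, 348 had calls in both directions and 1018 had none. All regions were higher in 2 genes and all lower in 12. Regions absent from the uncut set enter these counts, so they are a description only. The 2 genes higher throughout were MP, with 10 regions at log2 fold changes of 1.07 to 4.50, of which 3 were absent from the uncut set, and EMB2820 (AT5G24670, a cytidine deaminase family gene on chromosome 5, 8449028 to 8451066), with 6 regions at 1.06 to 5.18 and a median of 3.04. The rise of MP was not particular to its exons. Its promoter regions, at log2 fold changes of 3.83 to 4.98, and its intron regions, at 2.46 and 2.83, were also higher. All of these were absent from the uncut set, and no TTS region of MP was called. In EMB2820 a region of exon 10 (8450085 to 8450673) stood at 192, 159 and 172 CPM at 14 h, and 5 of the 6 regions were absent from the uncut set. In AT1G27570, 7 of 8 exon regions were higher (median 1.70), and 3 of the 8 were absent from the uncut set. The 12 genes lower throughout lay on chromosomes 1, 2 and 4 and included GLR2.4, AT4G19520 and RLM1 (AT1G64070), a TIR-NBS-LRR gene for resistance to blackleg fungus.

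Between regenerating times few exon regions could be told apart. From 2.5 h to 14 h, 0 of 41294 exon regions were higher and 0 lower by edgeR (0.0% and 0.0% of all regions), with 1993 at an unadjusted p under 0.05, and DESeq2 called 577 higher and 10 lower. From 14 h to 16 h, 1 of 42883 was higher, exon 15 of TWN2 (0.00104% of all regions), and 0 were lower (0.0% of all regions), with 1294 at an unadjusted p under 0.05 and 0 called by DESeq2. The log2 fold change of TWN2 from 14 h to 16 h was 3.53 ± 0.49 (edgeR adjusted p = 0.0425). It was lost without 16h replicate 1 or 3 (3.26 and 3.19; adjusted p = 1.00 for each), without 14h replicate 2 or 3, and with DESeq2.

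Genes of hormone, regeneration and root identity pathways had called exon regions in both directions. The 14 lists examined hold 234 genes with a match, 183 of them with an exon region tested at 14 h and 16 h. At 2.5 h 1 of their 608 exon regions was higher and 18 lower (0.164% and 2.96%). At 14 h 13 of 630 were higher and 13 lower (2.06% each way), and at 16 h 24 were higher and 6 lower (3.81% and 0.952%). Over all exon regions the shares were 0.751% higher and 2.098% lower at 14 h, and 2.28% and 3.16% at 16 h. Single lists hold 10 to 102 exon regions, of which such shares amount to a few at most, so the counts below say nothing about a list as a whole. Of the 13 higher at 14 h, 7 were those of MP, as were 6 of the 24 higher at 16 h and the 1 higher at 2.5 h. The listed regions named as lower at 2.5 h, in genes such as ARF6, NPH4, LBD29 and WOL, had no read in any 2.5 h library, except that of PRP3 at 15.9 ± 4.11 CPM against 44.5 ± 2.84 in uncut roots. The median log2 fold change over the lists was 0.13 at 14 h and 0.11 at 16 h, beside 0.10 and 0.06 for all exon regions. Of the listed regions named below other than those of MP, each call at 14 h and 16 h was lost without at least 1 uncut library, except that of CAB2 at 16 h.

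In the auxin lists, exon 2 of YUC3 (an auxin synthesis enzyme) stood at 5.75 ± 0.55 CPM in uncut roots and at 20.7 ± 10.6 at 16 h (log2 fold change 1.85 ± 0.35, edgeR adjusted p = 0.00695). The last exon of the influx carrier AUX1 rose from 6.04 ± 0.29 to 16.9 ± 7.16 CPM (edgeR adjusted p = 0.0155). At 14 h, exon 1 of the efflux carrier PIN3 and exon 3 of the auxin synthesis gene TAA1 fell, from 27.2 to 11.5 CPM (-1.27 ± 0.19) and from 22.4 to 9.87 CPM (-1.21 ± 0.21). The list of auxin transport and synthesis had 0 regions higher and 2 lower of 61 at 14 h, and 3 higher and 0 lower at 16 h.

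In the list of wound and regeneration factors, 0 of 40 exon regions passed at 14 h in either direction, and 2 were higher and 1 lower at 16 h. Exon 2 of WOX11, a homeobox factor of root founder cells, rose from 3.72 to 14.1 CPM (1.96 ± 0.41, edgeR adjusted p = 0.0118) and exon 2 of the GRAS factor SCL5 from 9.24 to 22.0 CPM (1.26 ± 0.31). Without 16h replicate 2 neither passed, and the log2 fold change of WOX11 was 1.21. Exon 2 of PLT1, an AP2 factor that maintains the root stem cell niche, fell from 30.7 to 12.6 CPM (-1.28 ± 0.25, adjusted p = 0.00731). In the jasmonate list, 1 of 41 exon regions was higher at 14 h, exon 3 of the repressor gene JAZ6 (1.28 ± 0.28), and 1 lower, exon 5 of the synthesis gene OPR3 (-0.73 ± 0.16). At 16 h 3 were higher, in JAZ6 and the synthesis genes AOS and AOC3.

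In the cytokinin list, 3 of 65 exon regions were lower at 14 h, in the response regulators RR1 and RR2 and the receptor HK3, and 0 were higher, whereas at 16 h 2 were higher and 0 lower. Exon 5 of RR1 stood at 76.4 CPM in uncut roots and 41.7 CPM at 14 h (-0.90 ± 0.14, edgeR adjusted p = 0.00928). In the cell cycle list, 1 of 51 was higher at 14 h, exon 1 of the mitotic kinase gene CDKB1;2, which rose from 5.03 to 15.9 CPM (1.63 ± 0.29, adjusted p = 0.0154). In the list of chromatin regulators, 1 of 98 rose at 14 h, exon 20 of the DNA methyltransferase gene CMT3, from 4.87 to 13.4 CPM (1.43 ± 0.30). Another 2 fell: exon 2 of the remodeller BRM, from 57.3 to 29.7 CPM (-0.97 ± 0.22), and exon 2 of the histone deacetylase gene HD1, from 43.5 to 19.4 CPM (-1.18 ± 0.23). At 16 h 3 were higher and 2 lower.

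In the lists of cell type markers, exon regions were called singly and in both directions. In the epidermis and root hair list, 2 of 34 exon regions were higher and 2 lower at 14 h. Those higher were in CPC (log2 fold change 1.36, edgeR adjusted p = 0.0312) and EGL3 (0.84, adjusted p = 0.0490). Those lower were in PRP3 (-1.05, adjusted p = 0.0469) and in GL2, a homeobox factor of non-hair cells. Exon 6 of GL2 fell from 32.3 to 12.3 CPM (-1.41 ± 0.31, edgeR adjusted p = 0.0428). The calls of EGL3, PRP3 and GL2 were also lost without 14h replicate 2. In the vascular and stele list, 0 of 102 were higher and 1 lower at 14 h, the phloem-related DOF6 (-0.81 ± 0.17), and at 16 h DOF6 was lower again and 2 were higher, in the homeobox genes PHB and PHV. In the stem cell niche list 1 of 36 was higher at 14 h, in the zinc finger gene MGP (0.92 ± 0.17), and PLT1 was lower at 16 h. Of the endodermis and cortex list 1 of 26 was higher at 14 h, again MGP, and of the root cap and columella list 1 of 10 at 16 h. For the photosynthesis list, markers of leaf cells, 1 of 11 regions fell at 14 h and 1 at 16 h, both in CAB2, and 0 of 28 heat shock regions passed at 2.5 h, 14 h or 16 h.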

How the data were processed

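ATAC-seq libraries of 4 groups with 3 libraries each were used. The authors deposited raw read counts per accessible region for each library, and a table for 14 h with annotation and normalized signal per library. Per the submitters' processing notes, the tools were Bowtie2, SAMtools, MACS2, DESeq2 and HOMER, with build TAIR10; no settings, duplicate handling or counting tool were found there. The signal deposited by the authors proved to be whole reads over a size factor (100% whole at a tolerance of 0.01); recovered reads equalled the count files in 100% of shared regions at 14 h and 97.3% in uncut libraries.

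Counts were tested with edgeR 4.0.16 (R 4.3.3; TMM, filterByExpr, quasi-likelihood F test, Benjamini-Hochberg over all regions shared by both groups, threshold 0.05). Levels are CPM on TMM sizes over 99052 regions counted in all libraries. A count of 0 allows up to 3 reads; such limits cover counting error only, since PCR copies may be counted. Shares were compared by exact permutation tests (scipy 1.17.1). The edgeR step was tested on simulated counts. Gene symbols came from a RefSeq table (TAIR10.1; names only), which matched 249 of 259 listed symbols. No genome sequence was used, and the planned description of motifs was not made.

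Regions named are every exon region of MP, the 10 with the highest CPM per kb, up to 6 higher and 6 lower per comparison by fold change among those past the threshold, above the median level and without overlap of groups, and up to 4 per list by p. One region that these rules name is not reported here. The members, lists and rules were chosen with earlier results of these data known; the genes of the chromosome 4 run and the other regions of TWN2, ACD6, EMB2820 and AT1G27570 were chosen after their values were seen. Alternatives were DESeq2 1.42.0, its size factors in edgeR, total counts, no filter, a replicate block, chromosomes 3 and 5 alone, recovered reads, leaving out the highest 1% of regions for shares, and leaving out each library.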

Additional observations from a re-analysis of the deposited data

Results flagged for a closer look

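Exon 15 of TWN2 differed between 14 h and 16 h when both were set against the same uncut libraries: its log2 fold change at 16 h exceeded that at 14 h by 3.53, in the test of 16 h against 14 h (edgeR, Benjamini-Hochberg adjusted p = 0.0425). The 3 libraries of 16 h stood at 185, 33.2 and 196 CPM and the 3 of 14 h at 16.0, 11.3 and 8.55 CPM. The call rested on 16h replicates 1 and 3, whose removal left log2 differences of 3.26 and 3.19, and on 14h replicates 2 and 3, whose removal left 3.50 and 3.34. Groups of 3 libraries were not examined for single outlying libraries.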

How the results depend on the processing

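Counts of exon regions higher and lower moved by more than 1.5 times under several alternatives. DESeq2 gave 132 higher at 2.5 h, 3192 higher and 2948 lower at 14 h, 3066 and 2641 at 16 h, 577 and 10 between 2.5 h and 14 h, and 0 higher between 14 h and 16 h. At 2.5 h its size factors in edgeR gave 48 higher and total counts 102. Over all regions the median log2 fold change at 2.5 h was -0.38 with TMM, -0.22 with DESeq2 size factors and -0.06 with total counts, and changes there are relative to TMM; between 2.5 h and 14 h it was 0.39, 0.26 and 0.11. Chromosomes 3 and 5 alone held 0 higher and 429 lower at 2.5 h, 6 and 39 at 14 h, 100 and 122 at 16 h, and 0 higher between 14 h and 16 h; fewer regions were tested there. Recovered reads over the whole 14 h set gave 4855 higher and 4751 lower.

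Deviations of same-numbered replicates had correlations of -0.05 to 0.02, and those of 16 h replicate 2 and uncut replicate 1 had 0.06. Regenerating replicates agreed far less with each other than uncut ones, so these values cannot decide whether the numbers pair libraries. With the replicate block there were 0 higher and 0 lower at 2.5 h, 38 and 516 at 14 h, 79 and 689 at 16 h, and 0 higher between 14 h and 16 h.

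With 1 library left out, counts ranged from 0 to 667 higher and 965 to 5938 lower at 2.5 h, 14 to 2179 and 300 to 2220 at 14 h, 31 to 2061 and 337 to 2096 at 16 h, and 0 to 1 higher between 14 h and 16 h. The difference in exon share ranged from 2.34 to 2.65 points and stayed past the threshold, as it did without the highest 1% of regions (2.61). The difference of late and 2.5 h shares turned to 0.0913 on chromosomes 3 and 5, to 0.17 without the highest 1% of regions, and ranged from -0.21 to 0.11 with 1 library left out. The ratio of inner to last exons ranged from 0.0944 to 0.118 and that of exon to intergenic reads from 0.53 to 0.62, the latter with an adjusted p of 0.0545 (exact permutation) without any 1 uncut library, which is the smallest that 9 against 2 libraries allow over 3 ratios. The rise of MP exon 10 at 2.5 h, not called, became -0.17 without 2.5h replicate 3 and at most 0.975, without 2.5h replicate 2.

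Of the named regions past the threshold, 0 of 28 at 2.5 h, 13 of 36 at 14 h and 13 of 39 at 16 h passed in every alternative that gave a value. Without an uncut library 16, 23 and 26 of them were lost, and with the replicate block 28, 17 and 20. None reversed. The depth at 2.5 h and 16 h and the unequal spread of the groups limit what single regions show.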
